A study of Mus musculus with 26 samples.

Results

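Wild-type S49 cells exposed for 6 h to 100 µM 8-CPT-cAMP, a cell-permeable analog of cyclic AMP (cAMP), were compared with untreated wild-type (WT) cells. The differences at 6 h rest on 7 of the 26 arrays of the series, chosen by their titles. These are 3 arrays of WT cells at 6 h (numbered 3, 18 and 38 in the labels) and 4 arrays of untreated WT cells (1, 13, 16 and 36). S49 is a murine T-lymphoma line. Other groups served to place the 6 h values. They were WT cells after 2 h and 24 h of the same dose (3 arrays each), and Kin- cells, untreated (4 arrays) and after 6 h (3 arrays). Kin- cells are S49 cells without active protein kinase A (PKA). All 26 arrays were fitted together. Every group, Kin- cells after 2 h and 24 h included, therefore entered the spread behind each standard error and p-value. The labels name no further agent, allele or growth condition for any group. Kin- is a single variant line, and no untreated arrays were taken at the later times, so exposure and time in culture cannot be told apart in WT cells.

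Cyclic AMP binds the regulatory subunits of PKA and frees its catalytic subunits, which phosphorylate transcription factors of the CREB family at cAMP response elements in promoters. In S49 cells this pathway is the classic model of growth arrest and death driven by PKA, because variants without the kinase survive the analog. S49 cells resemble immature thymocytes, which rearrange their antigen receptor genes with the Rag recombinase.

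Each array measured 22626 probe sets, and 12393 named genes were each represented by their brightest probe set. A level below is the square root of the deposited value, used as a log2-like scale because of its range. How the deposited values were scaled is unknown here, so 1 unit may differ from a doubling, and levels of different genes are not set against each other. Adjusted p-values are those of limma after Benjamini-Hochberg adjustment over all probe sets. The labels do not say whether arrays of 1 group stem from different cultures, and the p-values then weigh a difference only against array-to-array spread that could be technical. The number of arrays limits the precision, and the median standard error of a difference was 0.119 units. Arrays numbered 1 to 14 stood apart from arrays 16 to 47 in every group (the first component of the residuals held 35.5% of the remaining variance). Of the 6 h arrays, array 3 belongs to the earlier set and arrays 18 and 38 to the later. In bulk RNA, a change in the share of cells of one kind and a change in RNA per cell cannot be told apart.

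The arrays were checked against markers of the labelled cell type. T-cell markers were measured for 9 of 10 genes, and their mean level was 9.93 to 10.15 in the untreated and 9.77 to 10.02 in the 6 h arrays. Among them Cd3d, Cd3g, Thy1 and Lat lay above 12 at 0 h, while Cd5 lay at 3.19, near the low end of the scale. After 6 h Zap70 and Cd28 were higher and Thy1, Cd2 and Lat lower. The 5 B-cell markers averaged 3.83 to 4.08 at 0 h and 3.76 to 3.87 at 6 h, the 8 myeloid markers 3.98 to 4.04 and 3.98 to 4.04, and the 3 erythroid markers 3.74 to 3.84 and 3.60 to 3.73. The 4 epithelial markers averaged 3.48 to 3.53 and 3.28 to 3.44, and the 2 natural killer markers 2.44 to 2.46 and 2.41 to 2.49; no gene of these 5 lists passed the test. The 5 fibroblast markers went from 3.23 to 3.31 up to 3.79 to 3.90 through Pdgfrb alone, a growth factor receptor gene, while the collagen genes Col1a1, Col1a2 and Col3a1 and Dcn did not pass.

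After 6 h of the analog 2750 of the 12393 genes (22.2%) differed from untreated WT cells at an adjusted p under 0.05. Of all genes 11.0% were higher (1369 genes) and 11.1% were lower (1381 genes), and the median difference over all genes was −0.03. By 1 unit or more, 400 genes rose and 315 fell. In 2509 of the 2750 genes the 3 treated arrays did not overlap with the 4 untreated ones; over all genes the groups did not overlap in 34.5%.

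The 15 largest rises ran from 7.20 units for Sgip1 to 4.45 for Rgs2. Sgip1, an endocytosis adaptor gene best known from neurons, stood at 3.52, 3.52, 3.81 and 4.65 in untreated arrays and at 10.53, 11.79 and 10.92 after 6 h, a difference of 7.20 ± 0.30 (SE; adjusted p = 1.02e-12). Ramp3, a partner protein of receptors that signal through cAMP, stood at 2.17, 2.16, 2.63 and 2.38 untreated and at 8.80, 8.53 and 8.77 at 6 h. Both genes were near the low end of the scale in every untreated array and far above it in every treated one. Ramp3 was still rising after 2 h, when its mean was 6.44: the 6 h arrays exceeded the 2 h arrays by 2.26 (adjusted p = 1.37e-05), while the mean at 24 h was 8.09.

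**Figure D1:**
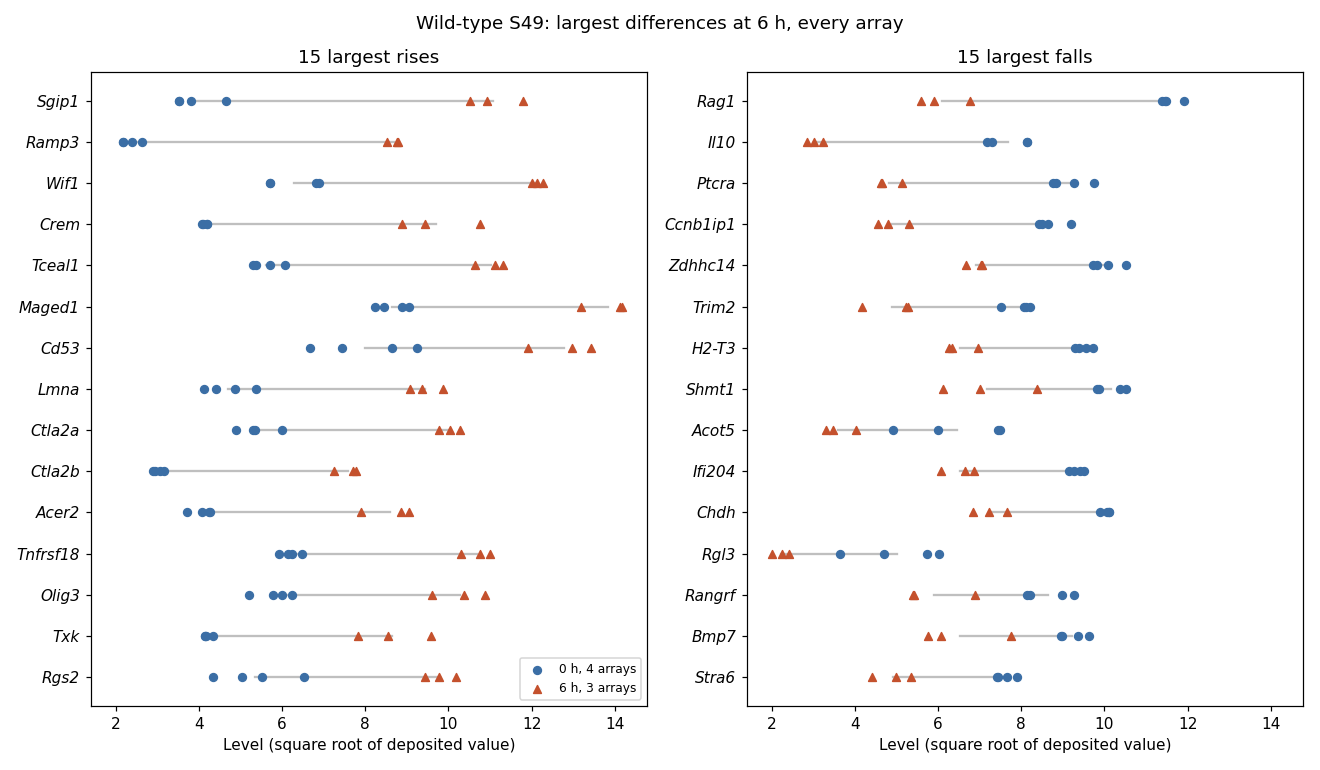
Levels (square root of the deposited value) in every WT array for the 15 largest rises (left) and the 15 largest falls (right) at 6 h; circles are the 4 untreated arrays, triangles the 3 arrays at 6 h, and the grey line joins the group means. No treated triangle lies among the untreated circles of the same gene; the narrowest gaps, among the falls, are those of Acot5, Bmp7, Rgl3 and Rangrf.

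Cd53, a tetraspanin of lymphocytes, read 7.44, 6.67, 9.23 and 8.64 untreated and 11.91, 13.44 and 12.98 at 6 h (4.78 ± 0.58, adjusted p = 3.3e-06). Tnfrsf18, which encodes the costimulatory receptor GITR, read 6.13, 5.93, 6.24 and 6.48 against 10.31, 11.00 and 10.75 (4.49 ± 0.27, adjusted p = 3.8e-10). The untreated arrays of Cd53 were spread over more than 2 units, whereas those of Tnfrsf18 lay close together, and neither gene's groups overlapped. The related genes Ctla2a and Ctla2b, which encode cysteine protease inhibitors of lymphocytes, rose by 4.65 ± 0.20 and 4.57 ± 0.20. Ctla2b read 3.14, 2.94, 3.07 and 2.90 untreated and 7.71, 7.79 and 7.24 at 6 h, between its means of 5.27 at 2 h and 9.72 at 24 h; both steps passed (adjusted p = 1.11e-06 and 3.1e-07). Since their sequences are alike, the probe sets of these 2 genes may share signal.

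Wif1, a secreted inhibitor of Wnt ligands, stood at 6.89, 6.81, 5.70 and 5.72 in untreated arrays and at 12.28, 12.01 and 12.13 at 6 h (5.87 ± 0.35, adjusted p = 2.66e-10). Its untreated arrays split by array set, with arrays 1 and 13 above arrays 16 and 36, and its treated arrays lay close together. Of the 29 measured Wnt pathway genes 3 were higher and 2 lower, near the shares of all genes. Txk, a T-cell kinase of the Tec family, lay between 4.14 and 4.34 in the untreated arrays and at 7.82, 9.57 and 8.54 at 6 h (4.45 ± 0.31, adjusted p = 2.4e-09). The transcription factor gene Olig3 rose by 4.49 ± 0.40, the ceramidase gene Acer2 by 4.54 ± 0.27, and Tceal1 and Maged1 by 5.41 and 5.18. Lmna, the gene of the A-type nuclear lamins, rose by 4.74 ± 0.30 from 5.38, 4.87, 4.40 and 4.12 to 9.86, 9.07 and 9.36.

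Genes of cAMP signalling itself were examined by role. Among 31 genes of the cAMP machinery (PKA subunits, anchors, phosphodiesterases, cyclases and G proteins) 5 were higher and 2 lower, with a median difference of 0.17; without array 3 the median was 0.000553, and in arrays 16 to 47 alone 3 were higher. Called counts this small move by over 1.5 times in many lists when 1 array is left out, and no direction is read from them. Prkar1a, the regulatory subunit that holds PKA inactive, had 10.90, 10.93, 10.88 and 10.97 in untreated arrays and 12.06, 12.48 and 12.33 at 6 h, a rise of 1.37 ± 0.10 (adjusted p = 7.25e-09). It was highest at 6 h: the means were 11.80 at 2 h and 11.78 at 24 h, and both steps passed (6 h minus 2 h, 0.49, adjusted p = 0.00557; 24 h minus 6 h, −0.51, adjusted p = 0.00224). The catalytic subunit gene Prkaca read 8.82, 8.81, 8.95 and 8.75 against 9.15, 9.22 and 9.12, a difference of 0.33 ± 0.10 (adjusted p = 0.0276) that no longer passed when any single one of these arrays other than array 16 was left out (adjusted p from 0.0562 to 0.107). Pde4b, a phosphodiesterase gene that degrades cAMP, stood at 5.45, 5.41, 5.10 and 5.28 untreated and 5.99, 6.03 and 6.20 at 6 h, below its mean of 7.17 at 2 h and of 6.99 at 24 h. The anchoring protein gene Akap1 fell by 0.96 ± 0.14.

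Among 39 CREB and immediate-early targets 14 were higher and 3 lower (median 0.07). Crem, which encodes the inducible repressor ICER, read 4.20, 4.09, 4.20 and 4.08 against 9.44, 10.77 and 8.88 (5.55 ± 0.36, adjusted p = 8.34e-10). Fos read 3.46, 3.29, 3.13 and 4.49 against 7.29, 8.50 and 7.95, and Nr4a1, an orphan nuclear receptor gene, 8.83, 8.16, 7.14 and 8.40 against 9.93, 10.29 and 10.66. Fos and Nr4a1 at 6 h lay between the 2 h and the untreated levels: their 2 h means were 9.37 and 12.28, and 6 h minus 2 h gave −1.46 and −1.98 (adjusted p = 0.0244 and 0.00157). Crem did not differ between 6 h and 2 h by the test (−0.51, adjusted p = 0.37). In all, 10 of the 39 were lower at 6 h than at 2 h and 1 was higher. Of all genes 6.38% were lower and 7.64% higher between these times, 14.0% in either direction.

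The phosphatase gene Dusp1, which switches off MAP kinases, stood at 6.68, 5.42, 6.82 and 7.60 untreated and at 9.38, 10.68 and 10.39 at 6 h (3.52 ± 0.45, adjusted p = 6.19e-06). Its relative Dusp10 rose by 2.72 ± 0.16. Dusp1 and Prkar1a were also among the genes whose promoter holds the full, palindromic cAMP response element TGACGTCA. Their promoters, windows of 300 bases that span the annotated start in RefSeq (GRCm38.p6), are shown because these called genes hold the full element. Capitals mark the element, which lies at −143 to −136 from the start in Dusp1 (chr17:26508423-26508722, minus strand). In the Prkar1a window shown (chr11:109650699-109650998, plus strand) it lies at −49 to −42. From another annotated Prkar1a start (chr11:109650612-109650911, plus strand) the same element lies 39 to 46 bases after the start.
Dusp1: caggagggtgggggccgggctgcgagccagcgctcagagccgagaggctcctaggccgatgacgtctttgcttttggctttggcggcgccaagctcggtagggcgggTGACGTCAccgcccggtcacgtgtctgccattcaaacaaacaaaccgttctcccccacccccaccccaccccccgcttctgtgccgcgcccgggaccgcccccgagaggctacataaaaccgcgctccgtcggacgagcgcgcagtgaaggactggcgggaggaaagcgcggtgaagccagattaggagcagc
Prkar1a: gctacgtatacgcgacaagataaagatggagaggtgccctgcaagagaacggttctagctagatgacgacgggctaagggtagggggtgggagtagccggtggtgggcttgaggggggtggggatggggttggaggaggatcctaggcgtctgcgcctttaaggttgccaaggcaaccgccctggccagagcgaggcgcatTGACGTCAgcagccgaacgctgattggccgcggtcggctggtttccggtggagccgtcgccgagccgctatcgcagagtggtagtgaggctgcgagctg

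A RefSeq promoter was found for 9887 of the 12393 genes, and TGACGTCA, which reads the same on both strands, was present in 296 of them (2.99%), and in 588 of all 32851 promoters of the table (1.79%). It was present in 59 of 1129 genes higher at 6 h (5.23%) and in 31 of 1140 genes lower (2.72%). Of genes higher by 2 units or more 3 of 77 held it (3.9%), and of those lower by as much 0 of 24. In ribosome biogenesis genes 5 of 73 promoters held it (6.85%). All 5 genes were lower at 6 h, as were 79 of the 88 measured genes of that list (89.8%), with or without the element. None of the 14 promoters found for the 15 largest rises held it, nor any of the 11 found for the 15 largest falls, and 3 of the 29 found for CREB and immediate-early targets did. These are matches of letters in a short window and say nothing about binding.

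The largest fall was that of Rag1, a subunit of the recombinase that cuts antigen receptor genes. It had 11.39, 11.48, 11.91 and 11.45 in untreated arrays and 6.76, 5.90 and 5.58 at 6 h (−5.47 ± 0.20, adjusted p = 1.55e-13). The 6 h arrays of Rag1 lay below the 2 h mean of 8.86 (difference −2.78, adjusted p = 1.09e-07), and the 24 h mean of 7.12 was above them again by 1.04 (adjusted p = 0.0013). Rag2, the partner subunit, read 7.89, 7.79, 7.73 and 7.46 against 6.47, 4.92 and 6.05 (−1.91 ± 0.27), with means of 6.07 at 2 h and 6.20 at 24 h. Dntt, the polymerase that adds untemplated bases at the joints, read 12.23, 12.32, 11.77 and 11.90 against 11.13, 10.11 and 9.93 and was back at a mean of 11.96 at 24 h. The repair subunit gene Xrcc6 read 10.88, 10.94, 10.77 and 10.71 against 10.35, 9.33 and 9.16 and 10.64 at 24 h. In each of these 4 genes every treated array lay below every untreated one, and array 3 was the closest of the 3 to the untreated arrays. Of the 11 measured genes of V(D)J recombination 7 were lower and 0 higher (median −0.48). From 6 h to 24 h 5 rose and 1 fell, against 9.85% and 9.84% of all genes.

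Other genes of immature T cells fell too. Ptcra, a chain of the pre-T-cell receptor, read 9.26, 9.74, 8.83 and 8.75 against 4.62, 4.66 and 5.14 (−4.34 ± 0.52, adjusted p = 2.63e-06), and was already at a mean of 4.54 at 2 h. The lineage factor gene Bcl11b fell by 1.64 ± 0.14, from 11.80, 11.85, 12.09 and 12.10 to 10.71, 10.08 and 10.17, and the receptor gene Notch3 by 1.97 ± 0.25. The treated and untreated arrays of Bcl11b did not overlap. In the list of Notch pathway and T-lineage factors 11 of 35 were higher and 5 lower; the rises included Id2, an inhibitor of helix-loop-helix factors (2.50 ± 0.31), and the nuclear receptor gene Rora (1.66 ± 0.25). T-cell receptor and proximal signalling genes moved both ways, with 9 of 29 higher and 5 lower: the phosphatase gene Ptpn22, a brake on T-cell receptor signalling, rose from 8.54, 7.89, 8.66 and 8.20 to 11.75, 12.44 and 12.06 (3.76 ± 0.22), while the adhesion receptor gene Cd2 fell by 2.09 ± 0.28. Ctla4, an inhibitory receptor gene, rose by 4.18 ± 0.35.

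Receptors of homing and cytokine genes showed further differences. Ccr7, a lymph-node homing receptor gene, stood at 4.21, 4.29, 4.37 and 4.30 untreated and 6.53, 7.33 and 7.19 at 6 h (2.73 ± 0.21, adjusted p = 1.03e-08). The gut-homing receptor gene Ccr9 read 11.32, 12.31, 10.39 and 10.69 against 10.55, 8.25 and 8.89, so that array 3 overlapped the untreated arrays; its difference of −1.95 ± 0.47 (adjusted p = 0.00417) did not pass without array 18 (−1.46, adjusted p = 0.0505). Il10, an anti-inflammatory cytokine gene, read 7.18, 7.30, 8.12 and 8.13 against 2.83, 3.01 and 3.22 (−4.66 ± 0.34, adjusted p = 3.87e-09), below its mean of 5.07 at 2 h (difference −2.05, adjusted p = 0.000643). In the list of cytokines, receptors and SOCS genes 10 of 41 were higher and 2 lower. Of 17 granzyme and granule protease genes 6 were higher and 0 lower, among them Gzmb (2.91 ± 0.51) and the granule proteoglycan gene Srgn (2.72 ± 0.20).

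Among the other large falls, Ccnb1ip1 dropped from 8.65, 9.18, 8.49 and 8.42 to 4.80, 4.56 and 5.30 (−3.80 ± 0.20, adjusted p = 5.43e-11). Zdhhc14, a palmitoyltransferase gene, fell by 3.13 ± 0.25, the ubiquitin ligase gene Trim2 by 3.08 ± 0.29 and Stra6, a receptor gene of vitamin A transport, by 2.69 ± 0.27. Bmp7, a secreted ligand gene, read 9.35, 9.63, 8.95 and 8.98 against 7.74, 5.76 and 6.07 (−2.70 ± 0.31), with means of 8.35 at 2 h and 8.59 at 24 h. Array 3 was the least affected array for Bmp7, Shmt1 and Rangrf. Rgl3, a Ras-pathway effector gene, read 5.72, 6.01, 3.64 and 4.68 against 2.24, 2.41 and 2.00; its untreated arrays differed by more than the gap between the groups, and its difference of −2.80 ± 0.72 (adjusted p = 0.00717) did not pass in arrays 16 to 47 alone (−1.96, adjusted p = 0.0771).

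Genes were then placed in the time course, to see which differences were particular in time to 6 h. Between 2 h and 6 h 14.0% of genes passed (7.64% rose and 6.38% fell), and between 6 h and 24 h 19.7% (9.85% rose and 9.84% fell). The counts for gene lists below are to be read beside these shares. Peak genes were those that passed at 6 h against 0 h, 2 h and 24 h with the highest mean at 6 h, and trough genes the reverse. There were 103 peak and 65 trough genes among all 12393, and 70 and 38 of them had no called difference between 24 h and 0 h. Late rises and late falls passed at 6 h against both 0 h and 2 h and had differed by under 0.3 units at 2 h. There were 349 and 298 among all 12393 genes. These classes share the 6 h arrays, so each array weighs on every count: in the order peak, trough, late rise and late fall, the counts were 133, 123, 355 and 331 without array 3, 53, 35, 247 and 192 without array 18, and 50, 45, 229 and 194 without array 38. In arrays 16 to 47 alone they were 144, 159, 414 and 476.

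Of the 51 measured genes of ER chaperones and the unfolded protein response, which fold and export new secretory proteins, 29 were higher at 6 h and 0 lower (median 0.52), and 11 were peak genes: Creld2, Dnajb11, Dnajc3, Manf, Ostc, P4hb, Pdia3, Pdia6, Sec61a1, Spcs2 and Ssr3. Between 2 h and 6 h 19 of the 51 rose and 0 fell, against 7.64% and 6.38% of all genes. Between 6 h and 24 h 22 fell and 1 rose, against 9.84% and 9.85% of all genes. Creld2, an ER-resident stress gene, stood at 10.53, 10.53, 10.42 and 10.57 untreated and at 11.38, 11.72 and 11.91 at 6 h (1.16 ± 0.14, adjusted p = 2.4e-06). Its 2 h mean was 11.10 and its 24 h mean 9.97, below the untreated arrays; the step from 6 h to 24 h was −1.70 (adjusted p = 6.21e-08). Dnajc3, a co-chaperone that inhibits the kinase PERK, read 9.57, 9.41, 9.24 and 9.27 against 10.24, 10.62 and 10.66 (1.13 ± 0.15, adjusted p = 1.19e-05). In both genes every treated array lay above every untreated one, with array 3 the lowest of the 3.

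Other ER genes rose but did not meet all 3 tests of the peak class. Ero1a, the oxidase that recharges protein disulfide isomerases, read 9.68, 8.93, 8.81 and 9.67 against 11.51, 11.31 and 10.94 (1.98 ± 0.36, adjusted p = 0.000361). Edem1, a lectin of ER-associated degradation, read 11.13, 11.29, 11.67 and 11.54 against 12.32, 12.92 and 12.88 and was already at 12.50 at 2 h. The major chaperone genes Hspa5 and Hsp90b1 rose by 0.49 and 0.52 (adjusted p = 0.0278 and 0.0214). Hsp90b1 had its highest mean at 6 h, but its step from 2 h did not pass (0.40, adjusted p = 0.129). The kinase PERK itself, Eif2ak3, rose from 9.67, 9.24, 9.41 and 9.13 to 11.17, 11.46 and 11.39 (1.98 ± 0.16), whereas the stress targets Chac1 and Atf5 of the ATF4 branch fell by 1.57 ± 0.33 and 1.00 ± 0.22. In the list of ATF4 and transsulfuration genes 2 of 18 were higher and 3 lower, near the shares of all genes (11.0% and 11.1%). The lower count ran from 2 to 8 in other array choices and fits, and no direction of the list is read from it.

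The ER stress response element, CCAAT followed by 9 bases and CCACG on either strand, was searched after these values had been seen. It was present in 18 of the 9887 promoters matched to genes (0.182%), in 39 of all promoters of the table (0.119%) and in 9 of 41 promoters of the ER list (22%). Of the 18 genes 7 were higher and 0 lower at 6 h, against 11.0% and 11.1% of all genes. At 24 h 8 were lower than at 6 h, against 9.84% of all genes. All of these called genes belong to the ER list, whose values had been seen. The counts are therefore no separate evidence about the element. The promoters of Creld2 (chr15:88819396-88819695, plus strand; element at −126 to −108 from the start, on the other strand) and Dnajc3 (chr14:118937682-118937981, plus strand; element at −105 to −87) are shown with the element in capitals, since these peak genes share it.
Creld2: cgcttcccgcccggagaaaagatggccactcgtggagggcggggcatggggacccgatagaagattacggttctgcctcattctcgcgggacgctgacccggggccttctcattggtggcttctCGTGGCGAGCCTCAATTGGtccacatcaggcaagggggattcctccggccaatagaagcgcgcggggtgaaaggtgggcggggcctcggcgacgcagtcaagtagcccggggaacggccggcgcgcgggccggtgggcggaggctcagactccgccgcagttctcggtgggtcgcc
Dnajc3: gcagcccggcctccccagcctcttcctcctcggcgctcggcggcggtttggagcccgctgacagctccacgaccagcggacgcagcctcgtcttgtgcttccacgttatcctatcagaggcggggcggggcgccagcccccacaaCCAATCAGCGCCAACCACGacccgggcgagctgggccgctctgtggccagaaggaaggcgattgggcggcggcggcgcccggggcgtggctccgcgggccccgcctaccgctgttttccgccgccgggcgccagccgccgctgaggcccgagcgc

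Golgi and vesicle transport genes, which carry the cargo onward from the ER, followed a like course. Of 39 measured 20 were higher and 0 lower (median 0.40), and 13 fell and 1 rose from 6 h to 24 h. Vps37b, a subunit of the ESCRT-I sorting complex, had the largest rise, from 6.49, 6.67, 6.52 and 6.33 to 9.08, 10.49 and 10.23 (3.43 ± 0.32, adjusted p = 8.88e-08), although its 2 h mean of 11.19 was higher still. Sar1a, the GTPase that starts coats of ER-derived vesicles, read 9.50, 9.37, 9.37 and 9.31 against 10.10, 10.35 and 10.36 and fell to a mean of 9.00 by 24 h. Stx5a, a SNARE of the Golgi, rose by 1.19 ± 0.11. The peak genes Arf1, Bet1, Gorasp2 and Sar1b belong to this list.

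**Figure D2:**
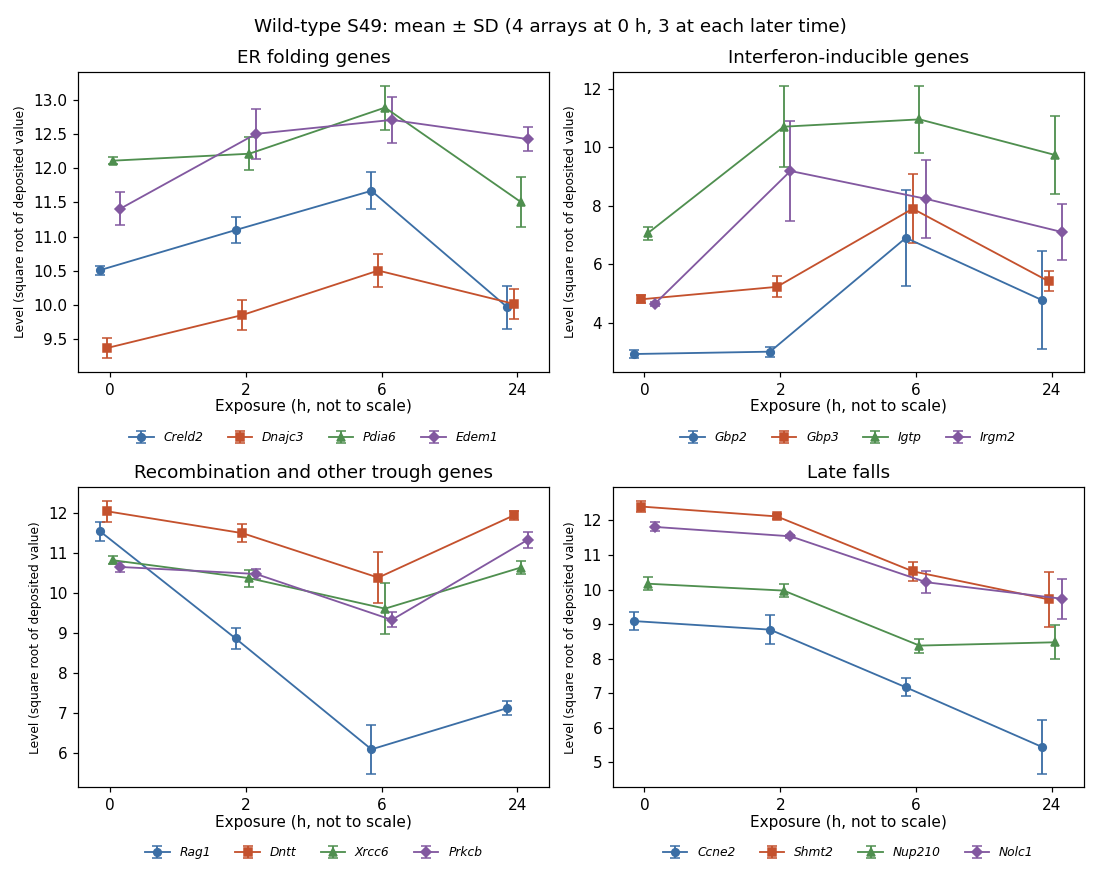
Mean level ± SD (square root of the deposited value, vertical axes) at 0, 2, 6 and 24 h (horizontal axes, not to scale) in WT cells for 4 genes in each of 4 groups, with 4 arrays at 0 h and 3 at each later time. Creld2, Dnajc3 and Pdia6 were highest at 6 h, Gbp2 and Gbp3 rose after 2 h, Dntt, Xrcc6 and Prkcb were lowest at 6 h, and at 24 h Dntt and Xrcc6 were near and Prkcb above the untreated level, and Ccne2, Shmt2, Nup210 and Nolc1 fell after 2 h.

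Outside these lists, 78 of the 103 peak genes belonged to no list. Cdk2ap2 read 9.82, 9.63, 9.58 and 9.68 untreated and 11.08, 11.33 and 11.54 at 6 h (1.64 ± 0.12, adjusted p = 2.76e-09), with means of 10.21 at 2 h and 10.08 at 24 h. Pou2af1, a coactivator gene of octamer factors best known from B cells, read 7.95, 7.77, 7.90 and 7.62 against 9.49, 9.32 and 9.21 and was back at 8.16 at 24 h. Pdgfrb, a growth factor receptor gene used here as a fibroblast marker, read 3.43, 3.15, 3.44 and 3.51 against 6.88, 6.16 and 6.02 (2.97 ± 0.61, adjusted p = 0.001). The treated arrays of all 3 genes lay above the untreated ones. Cpd, another gene among the 10 clearest peaks, overlapped between groups, and its difference of 0.82 (adjusted p = 0.0306) did not pass without array 1, 13, 18 or 38 (adjusted p from 0.1 to 0.168).

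By the gap to the nearer of the 2 h and 24 h means, Bmp7 was the clearest trough gene. Prkcb, a protein kinase C gene of lymphocytes, stood at 10.47, 10.79, 10.69 and 10.68 untreated, at 9.47, 9.12 and 9.40 at 6 h (−1.33 ± 0.19, adjusted p = 2.44e-05) and at a mean of 11.34 at 24 h. It was unlike Dntt and Rag1 in that its 2 h mean of 10.48 still lay within the untreated range. Zfpm1, a cofactor gene of GATA factors, fell by 2.66 ± 0.28 and regained part of it (mean 8.62 at 24 h against 7.09 at 6 h). The corepressor gene Tle6 fell by 2.40 ± 0.41 and Rsrc1 by 1.67 ± 0.18. Tfb2m, a mitochondrial transcription factor gene, and the zinc transporter gene Slc39a11 fell by 1.03 ± 0.16 and 0.95 ± 0.11 and had means at 24 h of 7.69 and 8.25, within their untreated ranges. The V(D)J genes Dntt, Rag1 and Xrcc6 belong to this class.

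Interferon-inducible GTPases, which defend cells against intracellular microbes, rose at 6 h with a wide spread between arrays. Of the 39 measured genes of the interferon list 22 were higher and 1 lower (median 0.65). Gbp2 stood at 2.90, 3.17, 2.86 and 2.85 untreated and at 5.03, 7.76 and 7.94 at 6 h (3.97 ± 0.57, adjusted p = 2.37e-05), with means of 3.02 at 2 h and 4.79 at 24 h. Gbp3 read 4.78, 4.65, 4.98 and 4.84 against 6.54, 8.50 and 8.68 (3.09 ± 0.33, adjusted p = 6.46e-07). For both, array 3 was above every untreated array but well below arrays 18 and 38. Gbp6 read 4.10, 3.87, 5.03 and 4.91 against 6.39, 10.16 and 10.06, and Igtp 7.21, 6.78, 7.02 and 7.26 against 9.62, 11.59 and 11.65. Gbp2b was at 1.61, the low end of the scale, in all 4 untreated arrays and at 1.76, 6.95 and 6.51 at 6 h, so that its rise (3.46 ± 0.70, adjusted p = 0.000891) rests on arrays 18 and 38; it did not pass when the WT 0 h and 6 h groups were fitted alone (adjusted p = 0.137) or in arrays 1 to 14 alone (0.15, adjusted p = 0.176).

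The time course differed within the family. Igtp and Irgm2 were already at means of 10.70 and 9.19 at 2 h, and neither differed between 2 h and 6 h by the test (0.25 and −0.95, adjusted p = 0.785 and 0.343). Gbp2, Gbp3, Gbp2b and Gbp6 rose after 2 h by 3.89, 2.67, 3.42 and 3.35 (adjusted p from 3.67e-05 to 0.0159). Ifi47, a late riser, read 8.62, 8.37, 8.57 and 8.49 against 9.88, 11.87 and 12.10, with a mean of 8.70 at 2 h. The receptor genes of interferon gamma rose too, Ifngr1 from 8.91, 8.54, 8.68 and 8.62 to 11.20, 11.68 and 11.33 (2.72 ± 0.18) and Ifngr2 by 2.65 ± 0.43. The gene that fell in this list was Ifi204, a DNA sensor gene of the Ifi200 family (9.26, 9.15, 9.50 and 9.42 against 6.86, 6.65 and 6.06). Within arrays 1 to 14 the median difference of these 39 genes was 0.41, within arrays 16 to 47 it was 0.82, and whether the array set or the culture behind it goes with this gap was not tested.

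**Figure D3:**
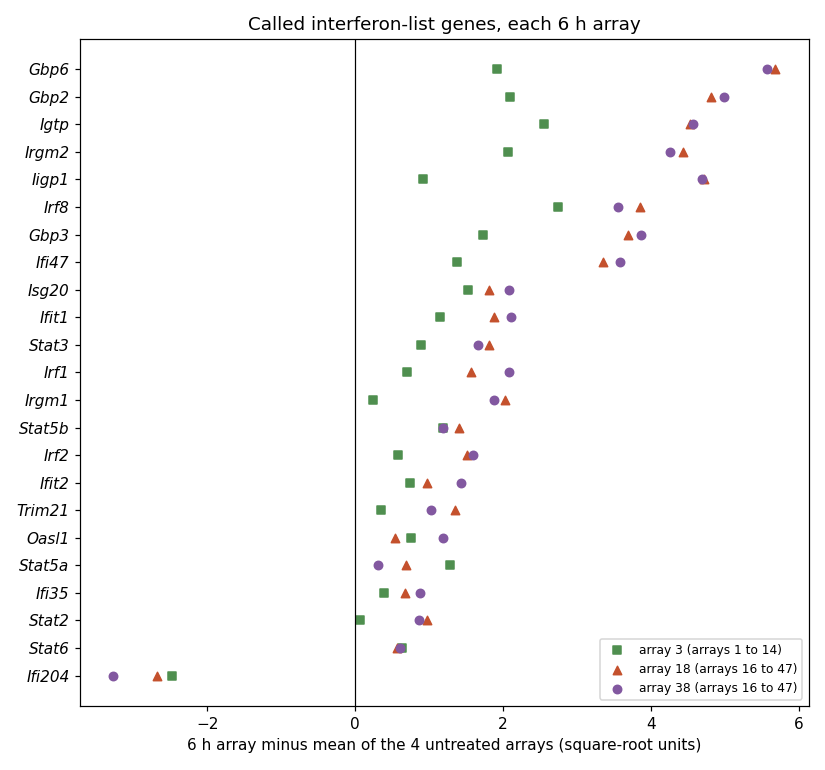
Difference of each 6 h WT array from the mean of the 4 untreated WT arrays (square-root units) for the 23 interferon-list genes that passed; squares are array 3 of arrays 1 to 14, triangles and circles arrays 18 and 38 of arrays 16 to 47. Arrays 18 and 38 lie close together for the guanylate-binding and IRG genes at the top, with array 3 lower but above 0, and Ifi204 is the gene below 0.

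Of 21 genes of MHC class I and peptide loading 8 were higher and 2 lower against untreated cells (13 higher in arrays 16 to 47 alone), and 11 were higher and 1 lower at 6 h than at 2 h. B2m, Cd1d1, Erap1, Pdia3, Tap1 and Tapbp were late rises. Tapbp, which loads peptides onto class I molecules, stood at 8.37, 8.20, 8.02 and 7.98 untreated and at 9.30, 10.17 and 10.37 at 6 h (1.80 ± 0.20, adjusted p = 1.26e-06), with a mean of 7.97 at 2 h and 10.08 at 24 h. The transporter gene Tap1 read 7.93, 7.98, 8.36 and 8.30 against 8.84, 9.80 and 9.74. In both, the 3 treated arrays lay above all untreated ones and array 3 was the lowest of them, as for the GTPases. H2-T3, a nonclassical class I gene, fell by 2.98 ± 0.32. For H2-D1 the probe sets disagreed, so the direction of this gene is uncertain. The brightest rose by 0.93 (adjusted p = 0.00585), and others that passed rose by 0.83, 0.77 and 0.37. A further 3 of its probe sets differed by −0.63, −0.80 and −1.59 and also passed.

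Il12rb1 was a late rise outside these lists of interferon and MHC genes. This gene, which encodes a subunit of the receptors of interleukins 12 and 23, stood at 6.59, 6.65, 6.61 and 6.29 untreated, a mean of 6.58 at 2 h, 8.62, 9.35 and 8.82 at 6 h (2.40 ± 0.22, adjusted p = 9.28e-08) and a mean of 9.22 at 24 h. Prkd2, a protein kinase D gene, read 8.05, 8.34, 7.95 and 7.57 against 10.14, 9.64 and 9.64, and Il16, a T-cell chemoattractant gene, 7.03, 6.33, 7.29 and 6.83 against 8.81, 8.80 and 8.31. All 3 genes were as high or higher at 24 h. Isg20, an exonuclease gene that does belong to the interferon list, rose by 1.81 ± 0.23, and Insl6 rose by 2.14 ± 0.27. Tktl1, a transketolase-like gene, had a difference of 1.75 ± 0.50 (adjusted p = 0.0147) that did not pass without array 1, 13, 18 or 38 (adjusted p from 0.0527 to 0.0791).

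Genes that build ribosomes had the largest share of called members among the 51 lists. Of 88 measured ribosome biogenesis genes, which make and assemble ribosomal subunits in the nucleolus, 79 were lower and 1 was higher (median −0.89), and 46 fell and 0 rose between 2 h and 6 h. The count of lower genes was 74 to 80 when any 1 array was left out, and 27 in arrays 1 to 14 alone. Gnl3, which encodes nucleostemin, stood at 12.95, 13.23, 12.84 and 12.71 untreated and at 11.83, 10.59 and 10.90 at 6 h (−1.83 ± 0.32, adjusted p = 0.000244). Nolc1, a nucleolar phosphoprotein gene, read 11.68, 11.97, 11.87 and 11.74 against 10.57, 10.10 and 9.97, and its mean at 2 h was 11.54, so it fell late. Wdr43, a factor of the small subunit processome, read 10.58, 10.71, 10.78 and 10.41 against 9.37, 8.72 and 8.90 (−1.63 ± 0.21, adjusted p = 9.04e-06) and was already at 9.31 at 2 h. The treated and untreated arrays of these 3 genes did not overlap. The 1 member that rose was Riok1, named here after its value was seen.

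The E-box CACGTG, the letters bound by Myc and its relatives, was present in 18 of 73 ribosome biogenesis promoters (24.7%), in 1069 of the 9887 matched genes (10.8%) and in 7.15% of all promoters of the table; it reads the same on both strands. It was present in 195 of 1140 genes lower at 6 h (17.1%) and 132 of 1129 genes higher (11.7%). Of genes lower by 2 units or more 2 of 24 held it (8.33%), and of those higher by as much 6 of 77 (7.79%). None of the 11 promoters of the largest falls held it. It was in 8 of 29 promoters of CREB and immediate-early targets (27.6%), a list with more genes higher than lower. In the mostly lower one-carbon list 1 of 20 held it (5%). These letter matches say nothing about binding. Myc itself fell from 10.14, 10.11, 11.02 and 10.71 to 8.56, 8.06 and 8.44 (−2.14 ± 0.31), with all treated arrays below the untreated ones, and its mean was 8.04 at 2 h. The promoter of Wdr43 (chr17:71615965-71616264, plus strand) is shown as one of the 18, with the E-box, 18 to 23 bases after the start, in capitals.
Wdr43: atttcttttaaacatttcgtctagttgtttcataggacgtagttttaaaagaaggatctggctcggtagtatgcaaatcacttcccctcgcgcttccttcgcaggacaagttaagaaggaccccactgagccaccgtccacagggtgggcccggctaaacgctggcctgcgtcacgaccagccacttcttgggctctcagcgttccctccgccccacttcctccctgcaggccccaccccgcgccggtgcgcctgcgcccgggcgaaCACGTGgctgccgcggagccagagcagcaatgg

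RNA polymerases I and III, which transcribe ribosomal and transfer RNA, had 15 of 30 genes lower and 2 higher. Polr1a, the largest subunit of polymerase I, read 8.87, 9.26, 9.09 and 8.97 against 7.79, 6.66 and 6.70, and Polr3g, a subunit of polymerase III, 6.90, 6.72, 7.33 and 6.80 against 4.56, 5.14 and 4.84. Array 3 was the highest treated array for Polr1a and the lowest for Polr3g. Cytosolic ribosomal proteins did not follow: of 42 genes 3 were lower and 1 higher, with a median of 0.01. Rpl12 fell by 1.97 ± 0.37 and Rps25 by 0.63 ± 0.13; many ribosomal protein genes have near-identical copies, so their probe sets are uncertain.

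Mitochondrial ribosomal proteins were lower in 38 of 72 genes and higher in 0 (median −0.46); the count was 23 without array 18. Mrpl12 read 11.75, 11.83, 11.09 and 11.12 against 10.82, 9.95 and 9.87 (−1.23 ± 0.27). Mitochondrial import and chaperone genes were lower in 21 of 31 and higher in 0 (median −0.59), among them the inner-membrane chaperone genes Timm9 (−1.67 ± 0.32) and Timm8a1 (−1.65 ± 0.18). Timm8a1 read 11.39, 11.47, 11.22 and 11.17 against 9.98, 9.34 and 9.68, with no overlap. Of 78 genes of oxidative phosphorylation and the TCA cycle 21 were lower and 2 higher (median −0.14; 10 lower without array 18 and 13 without array 38); Suclg2, a succinyl-CoA ligase subunit, was a late fall (9.60, 9.19, 9.28 and 9.38 against 7.96, 7.62 and 7.59, with 9.24 at 2 h).

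Enzymes that supply amino acids and nucleotides for growth were mostly lower. Aminoacyl-tRNA synthetases, which charge transfer RNA, were lower in 17 of 22 genes and higher in 0 (median −0.64), and 7 of them were late falls. Yars read 8.59, 8.65, 9.09 and 9.04 against 7.21, 7.19 and 7.57 (−1.52 ± 0.13, adjusted p = 2.47e-08), and Iars 11.41, 11.70, 11.95 and 11.82 against 10.26, 10.43 and 10.73 after a 2 h mean of 11.48. Of 23 genes of serine, folate and one-carbon metabolism 14 were lower and 0 higher (median −0.57). Shmt1, the cytosolic serine hydroxymethyltransferase, read 10.37, 10.51, 9.87 and 9.83 against 8.38, 6.12 and 7.01, with array 3 more than 1 unit above the other treated arrays. Shmt2, its mitochondrial relative, read 12.25, 12.28, 12.50 and 12.59 against 10.69, 10.20 and 10.70 and was at 12.12 at 2 h. Srm, the spermidine synthase gene, fell by 2.50 ± 0.28, and the folate carrier gene Slc19a1 by 2.12 ± 0.26.

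Purine and pyrimidine synthesis had 15 of 21 genes lower and 1 higher (median −0.59; 10 lower without array 18). Gart, a trifunctional purine enzyme, read 11.11, 11.18, 11.21 and 10.97 against 9.73, 9.03 and 9.22 (−1.79 ± 0.16, adjusted p = 5.21e-08). The glutamine transporter gene Slc1a5 read 9.61, 9.76, 9.90 and 9.94 against 8.19, 7.80 and 7.87, and 4 of 15 amino acid transporters were lower and 0 higher. Cytosolic chaperones were lower in 19 of 32 genes and higher in 3 (median −0.39). Fkbp5, a cochaperone of steroid receptors, read 12.04, 11.97, 12.11 and 11.96 against 11.15, 10.16 and 10.21. Translation factors were lower in 20 of 40 and higher in 2 (median −0.29), and proteasome genes in 9 and 2 of 40.

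Of 46 nuclear pore and transport genes 28 were lower and 0 higher (median −0.43), 9 of the 46 were late falls, and 15 fell and 1 rose between 2 h and 6 h. Nup210, a membrane-anchored nucleoporin gene, stood at 9.91, 10.20, 10.35 and 10.21 untreated, a mean of 9.97 at 2 h, 8.61, 8.23 and 8.29 at 6 h (−1.79 ± 0.15, adjusted p = 3.77e-08) and a mean of 8.47 at 24 h. Xpo5, the exporter of microRNA precursors, fell by 1.62 ± 0.27 and Xpot, that of transfer RNA, by 1.45 ± 0.20. Spliceosome and hnRNP genes were lower in 27 of 55 and higher in 1 (17 lower without array 38), and 16 of the 55 were late falls; Srsf2 and Snrpa1 fell by 0.78 ± 0.17 and 0.70 ± 0.12.

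**Figure D4:**
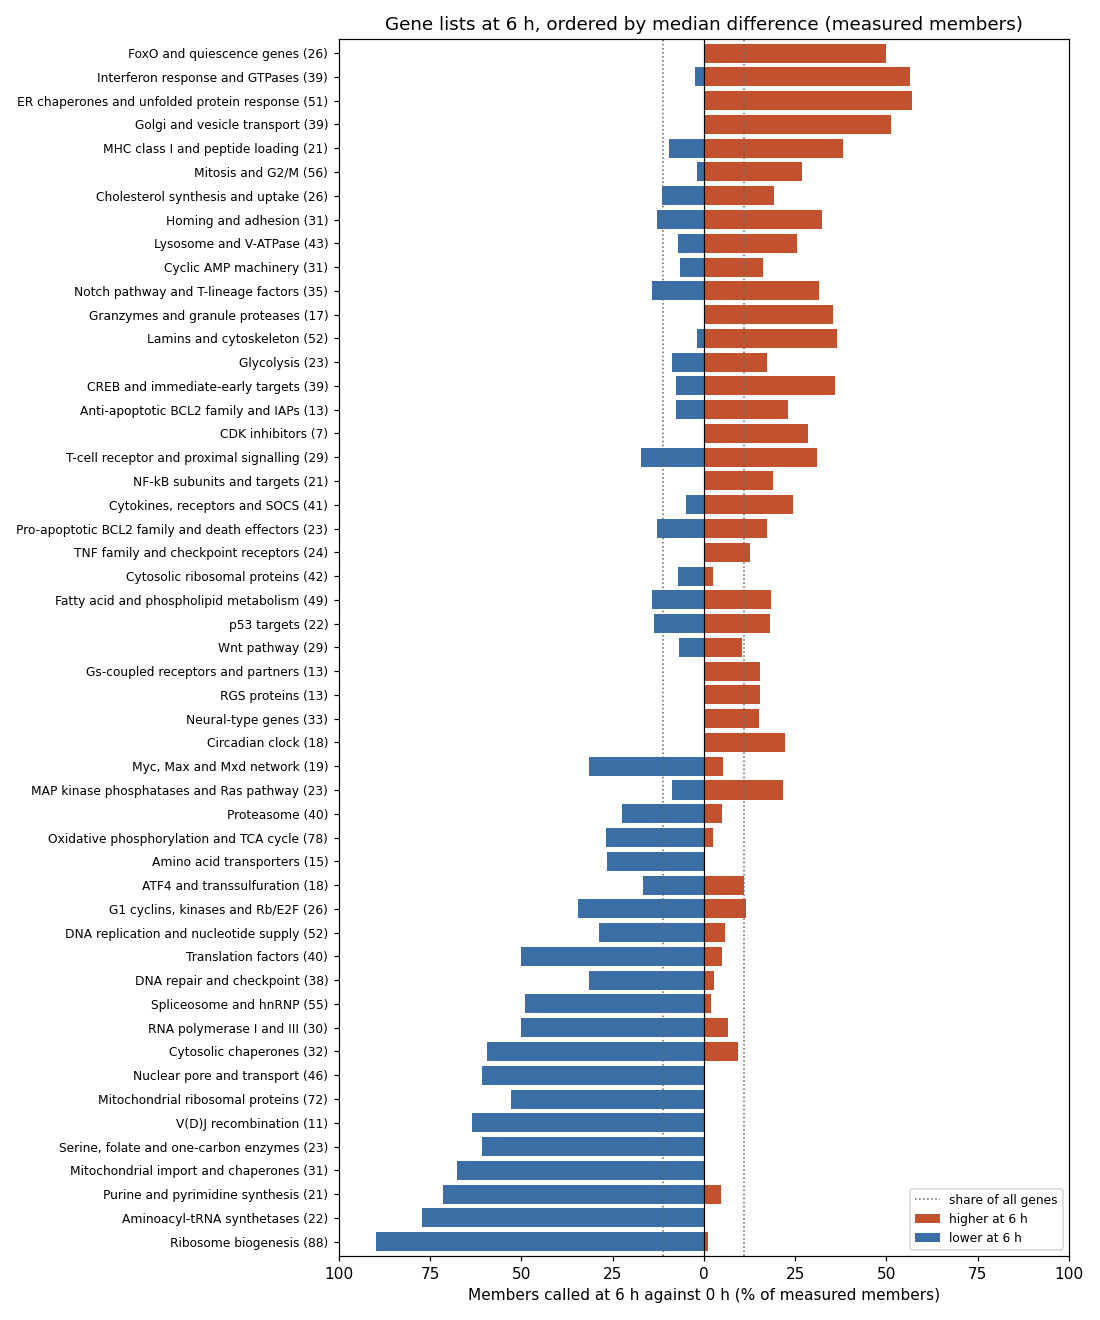
Share of the measured members of each of 51 gene lists (number measured in brackets) that passed higher (right) or lower (left) in WT cells at 6 h against 0 h, ordered by the list's median difference; dotted lines mark the shares of all genes, 11.0% and 11.1%. Ribosome biogenesis lies at the lower end with 89.8% lower, and the ER, interferon and Golgi lists have 56.9%, 56.4% and 51.3% higher.

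Of 26 genes of G1 cyclins, their kinases and the Rb/E2F pathway, which set entry into S phase, 3 were higher and 9 lower. Ccne2, an E-type cyclin gene, read 9.39, 8.91, 9.24 and 8.81 against 7.42, 7.20 and 6.89 (−1.92 ± 0.26, adjusted p = 1.19e-05), after a mean of 8.84 at 2 h and before one of 5.45 at 24 h. Ccne1 fell by 1.43 ± 0.19 and E2f1, a transcription factor of S-phase genes, by 1.07 ± 0.14. Ccnd3, a D-type cyclin gene, read 11.24, 11.22, 11.48 and 11.42 against 11.40, 10.80 and 10.91 and did not pass (−0.30 ± 0.14, adjusted p = 0.163); array 3 lay within the untreated range and arrays 18 and 38 below it, and without array 3 the difference was −0.48 (adjusted p = 0.0155). Cdkn1b, which encodes the CDK inhibitor p27, read 8.52, 8.24, 9.01 and 9.43 against 10.08, 10.53 and 10.69 (1.63 ± 0.36, adjusted p = 0.00206).

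In the DNA replication list 15 of 52 were lower and 3 higher at 6 h (8 lower without array 18, and 8 without array 38), and 46 fell and 0 rose from 6 h to 24 h. Mitosis and G2/M genes were higher in 15 of 56 and lower in 1 (8 higher without array 18), and 53 of them fell and 0 rose from 6 h to 24 h. Cdc25c, a phosphatase that starts mitosis, was a peak gene: it read 7.51, 7.82, 7.76 and 7.67 against 8.18, 8.62 and 8.59, with means of 7.79 at 2 h and 6.28 at 24 h. Smc4, a condensin gene, rose by 0.86 ± 0.13. Of 38 DNA repair and checkpoint genes 12 were lower and 1 higher; Rad50 fell by 0.92 ± 0.13.

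FoxO and quiescence genes were higher in 13 of 26 and lower in 0, with a median of 0.87. Foxo1 stood at 8.23, 8.23, 8.82 and 8.64 untreated and at 10.32, 10.68 and 10.65 at 6 h (2.07 ± 0.22, adjusted p = 5.78e-07). Ccng2, an atypical cyclin gene and FoxO target, rose by 2.67 ± 0.52, and Tsc22d3, which encodes the glucocorticoid-induced protein GILZ, by 1.53 ± 0.24. Bcl2l11 (BIM, which promotes apoptosis) read 9.23, 8.82, 8.95 and 9.12 against 10.17, 10.65 and 10.37 (1.37 ± 0.18, adjusted p = 8.57e-06), not different from its 2 h mean of 10.74 by the test (−0.35, adjusted p = 0.232) and below its mean of 11.91 at 24 h. Among pro-apoptotic and death effector genes 4 of 23 were higher and 3 lower (1 lower without array 18). These shares, 17.4% and 13%, lay near those of all genes (11.0% and 11.1%), and no direction of the list is read from them. Of single members, Casp8 rose by 1.04 ± 0.15, Bid fell by 0.93 ± 0.11, and Cflar, an inhibitor of caspase 8, rose late by 1.05 ± 0.16.

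The cytoskeleton and lysosome lists leaned upward. Of 52 genes of lamins and cytoskeleton 19 were higher and 1 lower (median 0.15), among them the tubulin gene Tuba1a, which read 9.36, 8.82, 9.89 and 10.27 against 12.24, 13.00 and 13.36 (3.28 ± 0.47), the tropomyosin gene Tpm4 (1.81 ± 0.17) and the filamin gene Flna (1.52 ± 0.23). Lysosome and V-ATPase genes were higher in 11 of 43 and lower in 3, and from 6 h to 24 h 21 rose and 1 fell. Lipa, the lysosomal acid lipase gene, read 7.78, 7.48, 8.00 and 8.21 against 9.47, 9.91 and 9.92, whereas the cathepsin gene Ctsl fell from 11.14, 11.34, 10.98 and 10.64 to 9.79, 9.47 and 9.31 and had a mean of 11.37 at 24 h. Lamp2, a lysosomal membrane gene, rose by 1.33 ± 0.14. In glycolysis 4 of 23 genes were higher and 2 lower (1 higher without array 38, 2 without array 13 or 16, and 0 lower without array 36), with the glucose transporter gene Slc2a3 at 8.92, 8.68, 8.59 and 10.09 against 11.76, 12.02 and 12.17 (2.91 ± 0.51). Cholesterol synthesis and uptake had 5 of 26 higher and 3 lower (2 higher without array 38), NF-kB subunits and targets 4 and 0 of 21 (2 higher without array 13, 3 or 18), and fatty acid and phospholipid metabolism 9 and 7 of 49. Of all genes 11.0% were higher and 11.1% lower. No direction is read from the glycolysis, cholesterol, NF-kB and fatty acid lists.

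The same exposure was measured in Kin- cells, as the background of the 6 h response without PKA activity. No gene passed in Kin- cells at 6 h against 0 h (0 of 12393 genes, or 0%; among all 22626 probe sets 0 passed in limma and 429 had an unadjusted p under 0.05, against 4441 and 6172 in WT). For the 2750 genes called in WT the median size of the difference was 0.69 in WT and 0.07 in Kin-, and the largest in Kin- was 0.85. The interaction, which is the WT response minus the Kin- response, passed in 12.4% of all genes and in 1530 of these 2750. Across all genes the 6 h differences of the lines had a Pearson correlation of 0.08; genes are not independent, and no test is given.

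**Figure D5:**
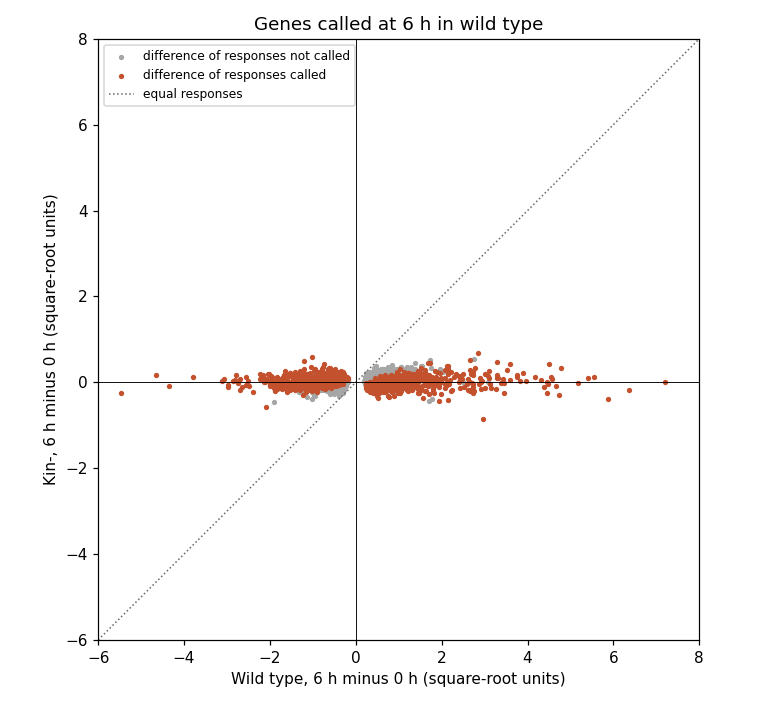
Difference at 6 h against 0 h in Kin- cells (vertical axis) and WT cells (horizontal axis), in square-root units, for the 2750 genes called in WT; orange points are the 1530 genes whose WT and Kin- responses differed by the test, grey points the others, and the dotted line marks equal responses. Points spread along the horizontal axis from −5.47 to 7.20 and stay within 0.85 of 0 on the vertical axis.

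For single genes the interaction was of the size of the WT response. It was 7.20 for Sgip1, 6.54 for Ramp3, 6.25 for Wif1, 5.44 for Crem (adjusted p = 5.83e-07) and −5.23 for Rag1 (adjusted p = 2.09e-10). For Creld2 and Dnajc3 it was 0.99 and 1.01 (adjusted p = 0.00165 and 0.0035), for Tapbp 1.96 (adjusted p = 9.29e-05) and for Gbp2 3.94 (adjusted p = 0.00218). It did not pass for Cdkn1b (1.57, adjusted p = 0.0534), Prkaca (0.21, adjusted p = 0.564) or Rgl3 (−2.83, adjusted p = 0.0877), so these 3 responses are not shown to differ between WT and Kin- cells.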

How the data were processed

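RNA was measured on 26 1-colour oligonucleotide arrays. The authors deposited 1 score per probe set and array, read here from the series table; how it was summarised, normalized and scaled is not given in the sources used here. The median score was 29.6 to 30.1 on the 7 wild-type arrays compared, and no score was missing or negative. The square root was taken of each score. All 8 groups were fitted together in limma 3.58.1 (R 4.3.3; lmFit, contrasts, eBayes), with Benjamini-Hochberg adjustment over 22626 probe sets and a threshold of 0.05. The procedure was tested on simulated data.

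The deposited platform annotation gave 1 symbol for 20380 probe sets, several for 691 and none for 1555; 20351 gene IDs matched the RefSeq gene table. A gene is represented by its probe set of highest mean over the 26 arrays, and 4956 of 12393 genes have several. The 51 gene lists hold 1654 measured genes. Named genes are the 15 largest rises and falls, the 10 clearest peaks, troughs, late rises and late falls, up to 4 called members of each list with some that did not pass, 12 genes always shown, the largest differences between lines, and genes whose probe sets disagree; marker genes and the other members of a class were named beyond this after their values were seen. The comparison, lists and array sets were chosen with earlier results of these data known. Alternatives were other scales, normalization, a filter on low levels, other fits and array choices, and leaving out each array.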

Additional observations from a re-analysis of the deposited data

Results flagged for a closer look

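Among the leading 30 genes and the 12 genes always shown, the untreated WT arrays of Txk held 1 value, 4.34, apart from the others at 4.14, 4.15 and 4.16; chance sets apart about 1 in 20 groups of this size, and the gap is small beside the rise of 4.45 at 6 h. The 6 h responses of WT and Kin- cells differed by the limma interaction test for 9 of the 12 genes always shown. Their differences, WT minus Kin-, were 5.44 for Crem, 2.20 for Nr4a1, 4.27 for Fos, −2.15 for Myc, −4.24 for Ptcra, −5.23 for Rag1, 1.17 for Bcl2l11, 1.47 for Prkar1a and −4.83 for Il10.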

How the results depend on the processing

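The 4441 probe sets called at 6 h against 0 h in WT cells were 3444 to 4489 when any 1 array was left out, and 719 in arrays 1 to 14 alone, which hold 1 treated WT array; those changed by at least 1 unit were 1204, 1040 to 1496 and 380. The comparison with 2 h depended most on the fit: its 2948 probe sets became 1335 with the groups compared alone, 7573 with array weights, 5180 with the array set as a fixed term, 5363 in arrays 16 to 47 alone, 0 in arrays 1 to 14 alone, and 1895 to 3594 with 1 array left out. For 24 h against 6 h the 4028 became 1883 with the groups alone, 7322 with weights, 0 in arrays 1 to 14 alone and 3219 to 4466 with 1 array left out. The WT minus Kin- count of 2444 became 4500 with weights, 3715 with the array set as a term, 1 in arrays 1 to 14 alone and 1799 to 2801 with 1 array left out.

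Fitted alone, the WT 0 h and 6 h groups gave 3533 probe sets called at 6 h against 0 h, 1086 of them changed by at least 1 unit. In that fit 24 of the named genes lost the call, among them Ccr9, Cpd and Tktl1 (limma adjusted p = 0.126, 0.188 and 0.0843). With the array series as a replicate block, whose pairing the labels do not state, 5595 probe sets were called at 6 h against 0 h, 5433 against 2 h and 3828 for WT minus Kin-. Peak, trough, late rise and late fall genes were then 193, 160, 579 and 539. These class alternatives were chosen after seeing the data.

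Among 233 named genes under 20 alternatives, 4356 of 4657 results kept direction and side of the threshold and 292 lost the call, 147 of them in arrays 1 to 14 alone. The sign turned for Ccnd3 in arrays 1 to 14 alone (0.17), and for H2-D1 (−0.030) and Zwint (0.15) with the mean over a gene's probe sets. Where no value above shows it, the cause was not tested.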
